A study of Homo sapiens with 160 samples.

Results

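The genes described here are 44 genes of mitosis and the cell cycle, taken by their symbols from a table of 29273 genes. All 44 were in the table, and all 44 were among the 14827 genes tested, that is, those that reached 1 in 5 libraries or more. They comprised 29 genes of G2 and mitosis (the G2/M genes), 14 genes of the G1/S transition and S phase (the S-phase genes) and CCND1, which encodes the G1 cyclin D1. RNA was sequenced from BEAS-2B, an immortalised human bronchial epithelial cell line. In every group, vehicle included, the cells had been grown to confluence and held overnight without serum. They then received vehicle (no stimulus, NS in the labels), indacaterol at 100 nM, carbachol at 10 µM, mometasone furoate at 100 nM, 1 of the 3 pairs of these agents, or all 3. RNA was taken after 1, 2, 6 or 18 h, which gave 32 groups of 5 replicates and 160 samples, of which 150 libraries were used. In 24 groups there were 5 libraries and in 6 groups 4, and at 18 h there were 3 in each of 2 groups (mometasone, and the triple combination). Among the libraries used, replicate 1 at 18 h was present only for indacaterol alone and carbachol alone, and not for vehicle. Indacaterol is a long-acting β2-adrenoceptor agonist, carbachol a cholinergic agonist and mometasone a glucocorticoid. The question asked of these genes was how the early fall of G2/M genes with indacaterol compared with the course of S-phase genes.

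The cell cycle is driven by cyclin-dependent kinases, whose cyclin partners are made in turn. Cyclin D1, made in G1 in response to growth signals, and later the E cyclins inactivate the retinoblastoma protein and release E2F factors, which switch on the S-phase genes for DNA replication. The G2/M genes are transcribed later, largely through the MuvB complex with B-MYB and FOXM1, and in resting cells they are held down by the DREAM complex. β2-adrenoceptors raise cyclic AMP, and glucocorticoids act through a receptor that is itself a transcription factor. Both signals are known to restrain the growth of airway smooth muscle.

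The depth behind each library is unknown. Nothing in the labels ties replicates to separate cultures, so the p-values cover only the spread among these samples, which may be technical. Between 12521 and 13239 genes reached 1 in a library, and columns summed to between 847289 and 1498420. The share of the summed values on mitochondrial genes was 5.88% to 28.3% (median 11.0%), and it was above 20% in 6 libraries, all of replicate 1. At 2 h it was 8.69% to 28.3% with indacaterol and 7.90% to 17.2% without. Of the marker genes checked, 6 of 8 epithelial, 4 of 6 fibroblast, 2 of 3 smooth muscle, 0 of 5 leukocyte and 0 of 3 endothelial markers had a mean value above 1. Of the epithelial markers, EPCAM (mean 0.260) and KRT19 (mean 0.520) were below it. KRT17 ranged from 76.4 to 4951 across libraries, and at 2 h the summed epithelial markers were 1321 to 5967 with indacaterol and 939.5 to 1990.5 without. The summed fibroblast markers were 693 to 1007 and 639 to 947. The part of these differences in the results below was not tested beyond leaving out the 6 libraries.

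At 2 h with indacaterol most G2/M genes fell, while 13 of the 14 S-phase genes were not called. The averaged indacaterol effect is the mean of 4 differences, each between groups with and without indacaterol on the same background (nothing, mometasone, carbachol or both), and it compared 20 libraries with 20. In it, 20 of the 29 G2/M genes were called lower and 0 higher, where a call is an adjusted p below 0.05 in a limma fit over all genes. Among all genes tested, 5.41% were called lower (802 lower and 1206 higher; 1496 lower and 784 higher when libraries were scaled to equal sums). The median log2 change was -0.31 over the G2/M genes, -0.02 over the S-phase genes and 0.01 over all genes. All 29 G2/M genes were below zero, against 8 of the 14 S-phase genes. Without the 6 libraries rich in mitochondrial values, 21 G2/M genes were called lower. In RNA of whole cultures, fewer cells in G2 and mitosis and less of these RNAs per cell cannot be told apart.

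**Figure D1:**
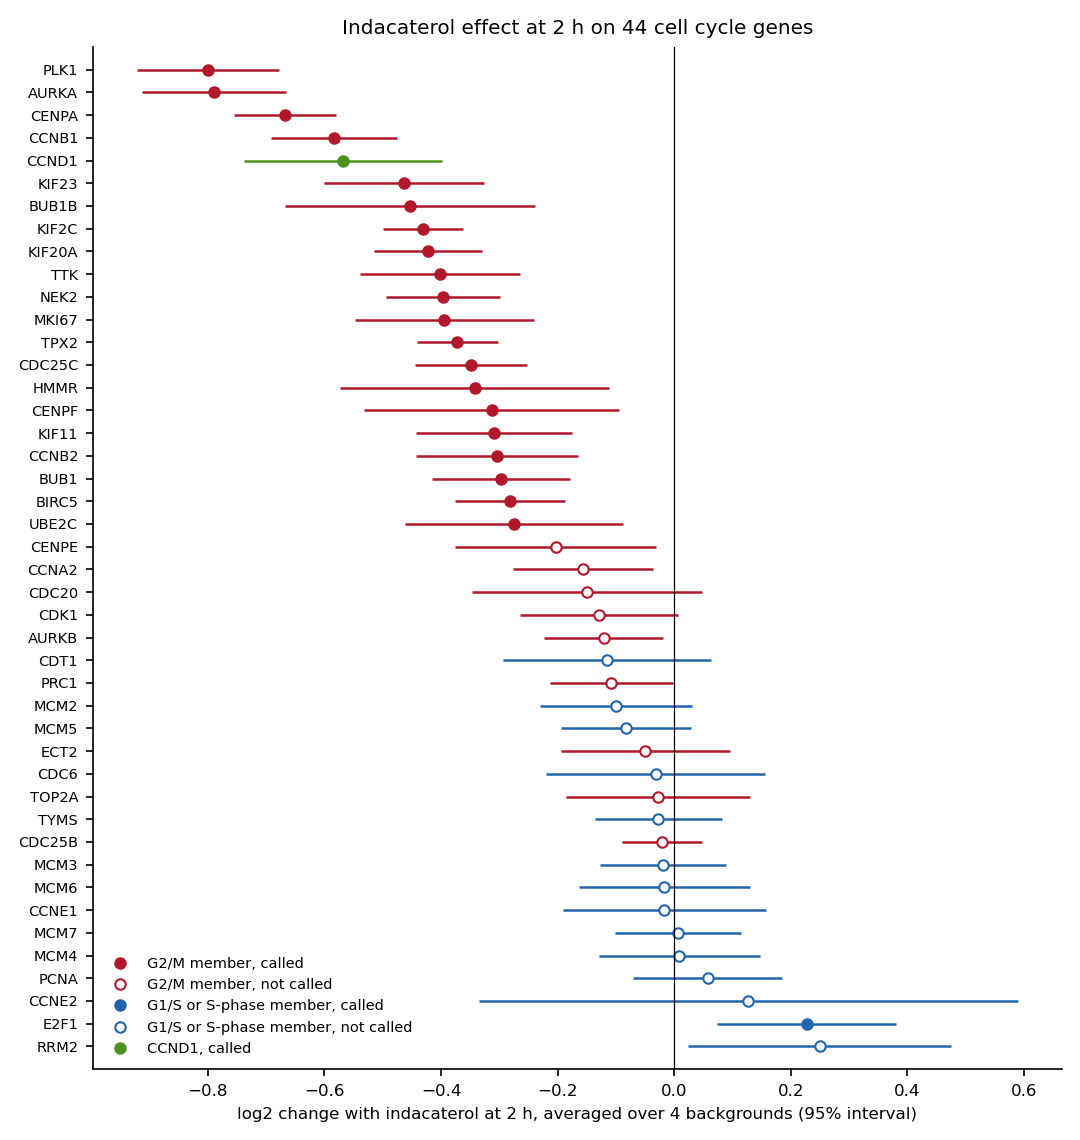
Averaged indacaterol effect at 2 h on each of the 44 genes (log2 change on the x axis, genes on the y axis), with bars for 95% intervals, colour for the gene group and filled points for calls. The 20 called G2/M genes lie between -0.80 (PLK1) and -0.28 (UBE2C), and the S-phase genes lie around 0.

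The largest falls among the G2/M genes were in the kinase genes PLK1 and AURKA. PLK1 (chr16:23677656-23690367, GRCh38), the polo-like kinase of mitotic entry, had values of 135, 136, 138, 132 and 172 in the 5 vehicle libraries at 2 h. With indacaterol alone its values were 70.4, 78.1, 75.3, 64.8 and 83.2. The 2 groups did not overlap, and neither did the 20 libraries with indacaterol (60.3 to 85.2, median 78.1) and the 20 without (111 to 172, median 134). The averaged change in PLK1 was -0.80 on the log2 scale (SE 0.06, adjusted p = 1.03e-22), or 1.74-fold lower. AURKA (chr20:56369389-56392337), the centrosomal Aurora A kinase, was at 116, 141, 131, 149 and 104 with vehicle and at 52.5, 66.2, 74.55, 80.7 and 59.7 with indacaterol. Every indacaterol value of AURKA lay below every vehicle value, and the averaged change was -0.79 (SE 0.06, adjusted p = 8.45e-22). NEK2, a kinase of centrosome separation, fell by 0.40 on the log2 scale. AURKB, the Aurora kinase of the chromosomal passenger complex, was not called (-0.12, 95% interval -0.22 to -0.02, adjusted p = 0.117).

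Cyclin B was called lower and its kinase was not, and the difference between them was not tested. CCNB1 (chr5:69167010-69178245), cyclin B1, was at 294, 294, 273, 311 and 312 with vehicle and at 148, 215, 198, 183 and 189.6 with indacaterol. These ranges did not overlap, nor did those of the 20 libraries with indacaterol (148 to 227, median 189.8) and the 20 without (231 to 327, median 288). The averaged change in CCNB1 was -0.58 (SE 0.05, adjusted p = 1.98e-17). CCNB2, cyclin B2, fell by 0.30, and CDC25C, a phosphatase that activates the cyclin B kinase, fell by 0.35. CDK1, the kinase itself, gave -0.13 (95% interval -0.26 to 0.01), CCNA2, cyclin A2, gave -0.16 (-0.28 to -0.04), and CDC25B, a related phosphatase, gave -0.02 (-0.09 to 0.05). None of these 3 was called.

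Genes of the centromere and of the spindle checkpoint also fell. CENPA (chr2:26764289-26801067), the histone H3 variant that marks centromeres, was at 47.7, 43.5, 52.35, 44.2 and 46.9 with vehicle and at 28.02, 28.1, 31.5, 32.7 and 33.3 with indacaterol. No library with indacaterol (23.2 to 33.3, n = 20) reached any library without it (40.2 to 52.35, n = 20), and the averaged change was -0.67 (SE 0.04, adjusted p = 1.96e-27). BUB1B (chr15:40161023-40221136), the checkpoint protein BubR1, was at 48.8, 51.0, 71.0, 60.7 and 43.1 with vehicle and at 32.1, 31.0, 49.6, 45.5 and 39.7 with indacaterol. Here the ranges overlapped. BUB1B was called in the averaged effect (-0.45, SE 0.11, adjusted p = 7.89e-04) but not against vehicle alone (-0.46, SE 0.22, adjusted p = 0.413). The checkpoint kinases TTK and BUB1 fell by 0.40 and 0.30, and CENPF, a kinetochore protein, fell by 0.31. CENPE, a kinetochore motor, was not called (-0.20, 95% interval -0.38 to -0.03).

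All 4 kinesins other than CENPE fell. KIF23 (chr15:69414246-69448427), a motor of the central spindle in cytokinesis, was at 123, 102, 117, 113 and 85.9 with vehicle and at 74.35, 81.05, 89.9, 80.7 and 69.99 with indacaterol. The 2 groups overlapped through 1 vehicle and 1 indacaterol library, and the averaged change was -0.46 (SE 0.07, adjusted p = 2.01e-08). KIF2C (chr1:44739818-44767767), which takes microtubules apart at kinetochores, was at 97.4, 103, 100.2, 113 and 111 with vehicle and at 74.2, 79.5, 69.7, 71.8 and 71.8 with indacaterol. Its 20 libraries with indacaterol (60.7 to 79.8) lay below the 20 without (82.3 to 113), and its averaged change was -0.43 (SE 0.03, adjusted p = 2.30e-21). KIF20A, a kinesin of cytokinesis, fell by 0.42, and KIF11, which pushes the spindle poles apart, fell by 0.31.

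Of the other G2/M genes, TPX2, a spindle assembly factor that activates Aurora A, fell by 0.37. MKI67, which encodes the proliferation marker Ki-67, fell by 0.39, and HMMR, a microtubule-binding protein of the spindle, fell by 0.34. BIRC5 (survivin, of the chromosomal passenger complex) and UBE2C (a ubiquitin-conjugating enzyme of the anaphase-promoting complex) each fell by 0.28. Those not called were CDC20, the activator of that complex (-0.15, 95% interval -0.35 to 0.05), PRC1, which bundles midzone microtubules (-0.11, -0.21 to 0.00), ECT2, a cytokinesis exchange factor (-0.05, -0.19 to 0.10), and TOP2A, which untangles sister chromatids (-0.03, -0.19 to 0.13). Across all 29 G2/M genes, the ranges of the 20 libraries with and the 20 without indacaterol were apart for 4 (PLK1, CCNB1, CENPA and KIF2C), all lower with indacaterol. This was so for 0.108% of all genes tested.

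**Figure D2:**
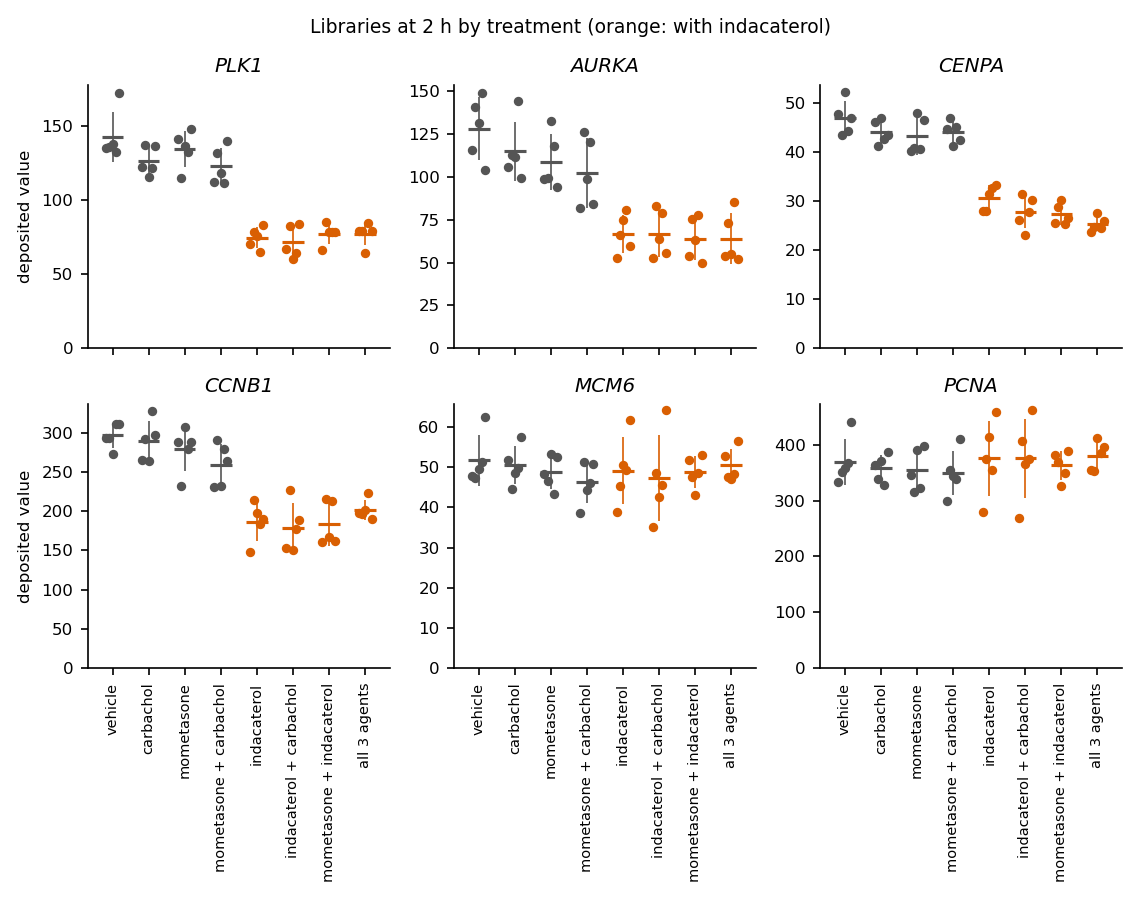
Deposited values at 2 h (y axis, starting at 0) in each of the 8 treatments (x axis) for 4 G2/M genes and 2 S-phase genes. Each point is 1 library, horizontal lines are means, vertical lines are ± 1 SD, and orange marks treatments with indacaterol. The orange points of PLK1, CENPA and CCNB1 lie below all grey points, while those of MCM6 and PCNA overlap them.

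Most S-phase genes were close to their level without indacaterol at 2 h. The 6 MCM genes, whose products form the replicative helicase, changed by between -0.10 (MCM2) and 0.01 (MCM4), and their 95% intervals lay between -0.23 and 0.15. The interval of PCNA, the sliding clamp of the replication fork, was -0.07 to 0.18. CDC6 and CDT1, which load the helicase, gave -0.03 (-0.22 to 0.16) and -0.12 (-0.29 to 0.06). TYMS, thymidylate synthase, gave -0.03 (-0.14 to 0.08), and CCNE1, cyclin E1, gave -0.02 (-0.19 to 0.16). These intervals leave room for changes of the size of the smaller called falls among G2/M genes in CDT1, but not in TYMS, PCNA or the MCM genes. None of these genes was called.

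The 3 S-phase genes with the largest changes were all above zero. RRM2 (chr2:10120698-10131419), a subunit of ribonucleotide reductase, was at 245, 348, 372, 331 and 226 with vehicle and at 183, 363, 440.0, 441 and 265 with indacaterol. These groups overlapped, and the averaged change of 0.25 (SE 0.11) was not called (adjusted p = 0.160). RRM2 was called higher without the 6 libraries rich in mitochondrial values (0.35, adjusted p = 0.0122). It was also called with the replicate number as a block (limma adjusted p = 0.00676, with 14.7% of all genes called higher), and 17 of 20 same-numbered pairs were higher. E2F1 (chr20:33675683-33686404), a transcription factor of S-phase genes, was at 103, 91.9, 101.5, 70.4 and 126 with vehicle and at 154, 115, 111, 92.5 and 129.8 with indacaterol. E2F1 was the 1 S-phase gene called in the averaged effect (0.23, SE 0.08, adjusted p = 0.0323; 8.13% of all genes were called higher). That call was lost without replicate 1, 2 or 4 (adjusted p up to 0.157), without the same 6 libraries (adjusted p = 0.133), with no filter on low values and under both other scalings. With the block the E2F1 call was kept (limma adjusted p = 1.02e-08), and 19 of 20 same-numbered pairs were higher. CCNE2, cyclin E2, was the most variable, at 23.2, 30.4, 40.2, 35.4 and 9.24 with vehicle and at 12.3, 23.7, 43.0, 39.8 and 16.5 with indacaterol (0.13, SE 0.23, adjusted p = 0.869).

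Promoters were read for genes of both groups because the groups moved apart at 2 h. RefSeq windows of 250 bases before to 50 after a start site (GRCh38.p14) were at hand for 24 of the 29 G2/M genes (33 windows) and 11 of the 14 S-phase genes (15 windows). Those below run over the 120 bases before the start site, on the gene's strand. They are 4 G2/M genes that fell at 2 h and 2 S-phase genes that were not called, chosen after the matches were seen. In the G2/M genes, capitals mark TTTGAA, a common spelling of the cell cycle homology region bound by MuvB complexes, and CCAAT or its reverse complement ATTGG, the box bound by NF-Y. In the S-phase genes, capitals mark CCAAT or ATTGG and the E2F spellings TTTGGCGC and TTTCCCGC, the latter as its reverse complement GCGGGAAA.
PLK1 (chr16:23678769-23678888, plus strand): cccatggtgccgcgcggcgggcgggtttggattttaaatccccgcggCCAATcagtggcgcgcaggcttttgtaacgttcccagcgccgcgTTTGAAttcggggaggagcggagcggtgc
CENPA (chr2:26785936-26786055, plus strand): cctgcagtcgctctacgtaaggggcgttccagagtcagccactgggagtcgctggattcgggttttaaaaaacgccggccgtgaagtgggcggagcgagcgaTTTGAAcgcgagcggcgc
KIF23 (chr15:69414229-69414348, plus strand): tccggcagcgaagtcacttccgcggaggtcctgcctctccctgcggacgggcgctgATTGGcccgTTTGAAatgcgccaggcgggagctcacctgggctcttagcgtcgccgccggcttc
CCNB2 (chr15:59105026-59105145, plus strand): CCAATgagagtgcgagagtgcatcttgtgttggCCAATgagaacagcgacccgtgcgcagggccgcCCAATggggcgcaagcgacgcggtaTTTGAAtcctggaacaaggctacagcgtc
MCM6 (chr2:135876444-135876563, minus strand): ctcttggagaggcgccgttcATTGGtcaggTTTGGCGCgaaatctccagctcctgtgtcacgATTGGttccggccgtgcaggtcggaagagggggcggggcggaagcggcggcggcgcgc
PCNA (chr20:5126623-5126742, minus strand): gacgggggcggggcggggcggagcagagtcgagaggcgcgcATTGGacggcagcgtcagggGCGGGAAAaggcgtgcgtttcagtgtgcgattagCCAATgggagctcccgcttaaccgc

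In PLK1 and CCNB2 the TTTGAA match began 29 bases before the start site, in CENPA 18 and in KIF23 55. Searched on both strands, TTTGAA was in 18 of the 33 G2/M windows (54.5%), in 0 of the 15 S-phase windows and in 15.2% of all 35116 windows of that length. CCAAT was in 25 of 33 (75.8%), 11 of 15 (73.3%) and 34.6%. Either E2F spelling was in 1 of 33 (3.03%), 8 of 15 (53.3%) and 2.27%. TTCGAA, the second spelling of the homology region, was in 2, 1 and 1.45%. The cyclic AMP response element TGACGTCA was in 3 of the G2/M windows (CENPE, CCNA2 and PRC1), in 0 S-phase windows and in 1.85% of all. None of CENPE, CCNA2 and PRC1 was called at 2 h, though each was below zero on all 4 backgrounds. The same held for 25 of the 29 G2/M genes and 14.7% of all genes. TTTGAA was in windows of PLK1, CENPA, KIF23, CCNB2, BUB1B, CENPF, CDC25C, HMMR, KIF11 and MKI67, all called lower at 2 h. It was also in windows of CDC20, CDK1, ECT2, PRC1 and TOP2A, which were not called. No window of BUB1, CCNB1, KIF20A, KIF2C or NEK2 held it, although these were called lower. Nor did any window of AURKB, CCNA2, CDC25B or CENPE, which were not called. Windows of 1 gene can overlap, and a match only says that the letters are there. AURKA, TTK, TPX2, UBE2C, BIRC5, CCNE2, MCM4, MCM5 and CCND1 had no entry.

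The averaged effect at 2 h is made of 4 comparisons that share no library with each other, and these are given one by one. Indacaterol alone against vehicle called 11 of the 29 G2/M genes lower (median -0.36; 0.911% of all genes), and 19 with the replicate number as a block (3.66% of all genes with the block). Added to mometasone it called 10 lower (1.07% of all genes), added to carbachol 11 (1.23%; with the block 22, and 6.10% of all genes) and added to both 9 (1.28%; with the block 17, and 5.37% of all genes). Added to both, the count was 5 without replicate 2, 3 or 4. No S-phase gene was called by limma in any of the 4, with 0, 1, 1 and 0 at an unadjusted p below 0.05. With the block, E2F1 was called higher against vehicle (0.29, adjusted p = 7.40e-04; 6.57% of all genes called higher) and added to carbachol (0.31, adjusted p = 2.88e-04; 8.93%). PLK1, AURKA, CENPA, CCNB1, KIF2C, KIF20A, TPX2 and CDC25C were called lower in all 4, and KIF23 and NEK2 in 3. That is 8 of 29 G2/M genes in all 4, against 52 of the 14827 genes tested (0.351%). A change below zero in all 4 was seen for 25 of 29 G2/M genes, 2 of 14 S-phase genes (MCM2 and MCM3) and 14.7% of all genes. In indacaterol against vehicle, the 5 libraries of each group did not overlap for 10 of 29 G2/M genes, all lower, and for 0 S-phase genes (0.823% of all genes were lower without overlap).

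**Figure D3:**
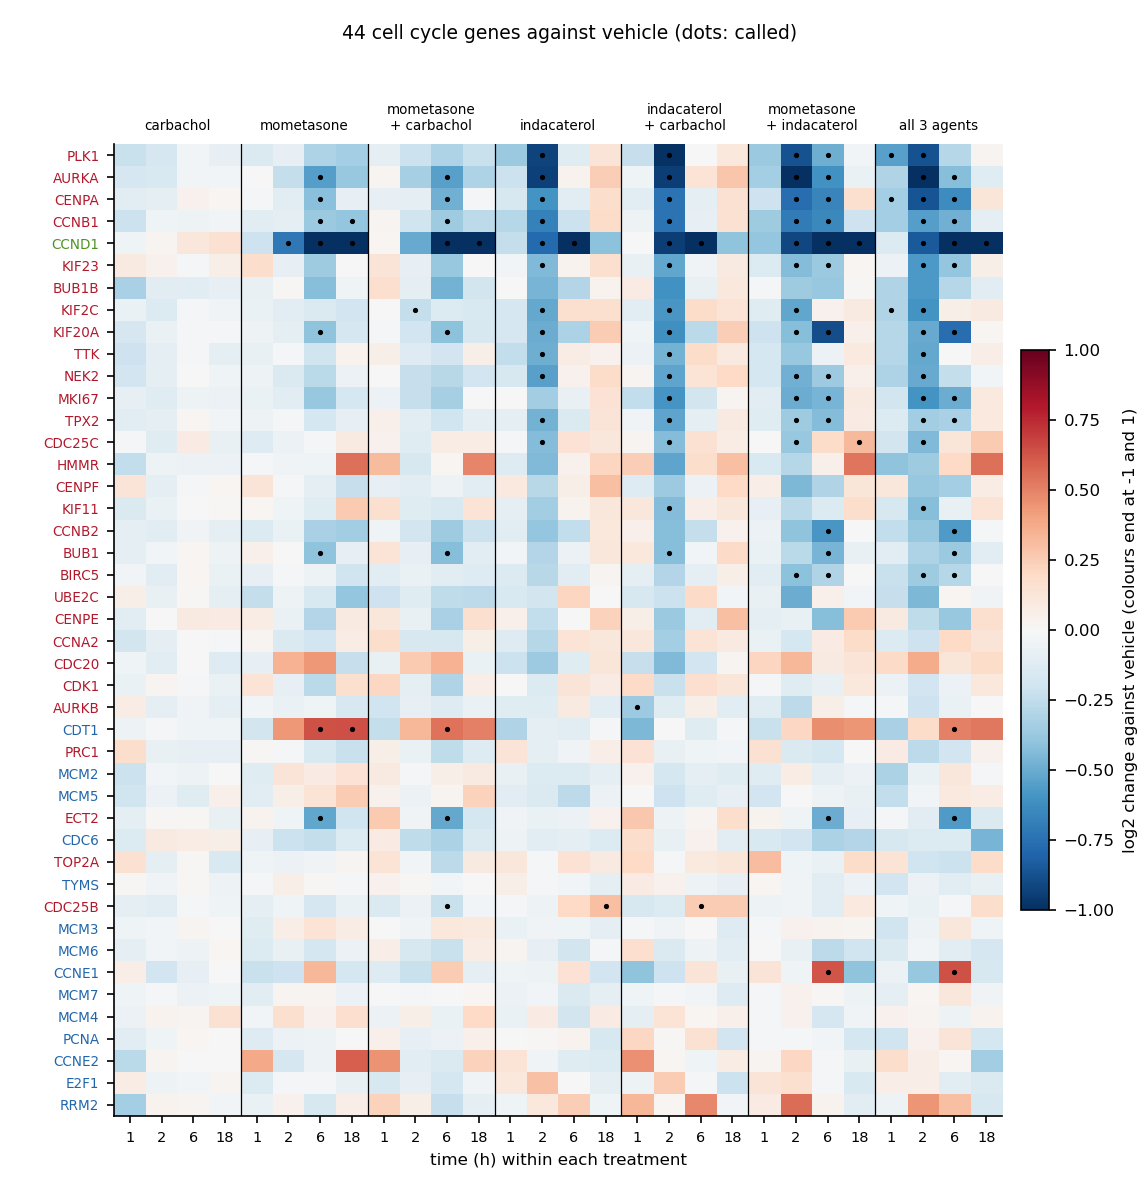
Log2 change against vehicle (colour, ending at -1 and 1) of the 44 genes (rows, ordered by the averaged indacaterol effect at 2 h) in 7 treatments at 4 times (columns). Dots mark calls, and row labels are red for G2/M, blue for S-phase genes and green for CCND1. Dots gather in the 2 h columns of the 4 treatments with indacaterol and in the 6 h columns of the 4 treatments with mometasone.

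Whether the indacaterol effect depended on another agent was tested as an interaction. That of indacaterol and carbachol called 0 of the 44 genes at each time (limma, with 0 at an unadjusted p below 0.05 at 1, 2 and 18 h and 1 at 6 h; 0.0202% of all genes called at 2 h and 0 at the other times). That of indacaterol and mometasone called 0 of the 43 genes other than CCND1 at each time (0.614%, 1.17%, 0.735% and 0.121% of all genes called at 1, 2, 6 and 18 h). At an unadjusted p below 0.05 there were 11 of 29 G2/M genes and 3 of 14 S-phase genes at 1 h, and 3 G2/M genes at 2 h. The share of all genes at that threshold was not set beside these counts, so they do not set the members apart. The median over the G2/M genes was -0.15 at 1 h and 0.09 at 2 h. The counts at 1 and 2 h depended on the model: with the replicate block, 23 of the 44 genes were called at 1 h (35.6% of all genes) and 5 at 2 h (11.4%).

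The indacaterol effect on G2/M genes was small at 1 h, largest at 2 h and above zero by 18 h. At 1 h, 4 of 29 were called lower in the averaged effect (median -0.06; 1.23% of all genes), namely PLK1 (-0.26, adjusted p = 0.00213), CCNB1 (-0.18), CENPA (-0.15) and KIF2C (-0.14). These 4 calls were not stable, since 0 were made without replicate 2 or without replicate 4. PLK1 at 1 h was at 137, 120.5, 106, 121 and 163 with vehicle and at 97.9, 82.8, 109, 83.3 and 128 with indacaterol, so these groups overlapped. Against vehicle alone, 0 of 29 were called at 1 h (0.101% of all genes), with 3 at an unadjusted p below 0.05.

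At 6 h the G2/M genes did not share a direction with indacaterol. In the averaged effect 6 were called lower and 3 higher (6.27% and 6.85% of all genes), with a median of 0.00. KIF20A (-0.35), CCNB2 (-0.23), BIRC5 (-0.16), TPX2 (-0.16), CCNB1 (-0.16) and CENPA (-0.16) were lower. CCNA2 (0.23), KIF2C (0.19) and CDC25B (0.18) were higher, and so were the S-phase genes RRM2 (0.36, adjusted p = 0.0210) and CCNE1 (0.26, adjusted p = 0.0334). Of these S-phase calls 0 remained without replicate 2 and 1 without replicate 1, 3 or 4. Without replicate 4 the count of G2/M genes called lower was 3, and without replicate 5 the count called higher was 5.

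By 18 h the direction had changed. All 29 G2/M genes were above zero in the averaged effect (medians of 0.15 over G2/M genes and -0.001 over all genes). Of them, 5 were called higher and 0 lower (0.789% and 0.809% of all genes). Those called were AURKA (0.27, SE 0.07, adjusted p = 0.0242), CDC25B (0.24, SE 0.04, adjusted p = 3.23e-06), KIF20A (0.23), KIF2C (0.22) and TPX2 (0.15). CDC25B was at 128, 133, 124 and 134 in the 4 vehicle libraries at 18 h and at 158, 161, 153, 169.75 and 158 with indacaterol alone. These 2 groups did not overlap, and CDC25B was the 1 G2/M gene called against vehicle (0.30, SE 0.07, adjusted p = 0.0336; 0.135% of all genes), or 1 of 2 with the replicate block. The count of 5 was 2 without replicate 2 or 4, 3 without replicate 3 and 9 without replicate 5. All 14 S-phase genes were below zero at 18 h (median -0.13), with 0 called by limma and 2 at an unadjusted p below 0.05. Genes of a group were read in the same libraries, so their shared sign is not separate evidence from each gene. The counts in the averaged effect at 18 h depended on the model. With the replicate block, 7 S-phase genes were called lower and 0 higher (4.82% of all genes lower). With it, 16 G2/M genes were called higher and 0 lower (4.09% of all genes higher). The averaged effect did not meet the pairing rule given below.

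The difference between times was tested directly. Against the effect at 2 h, the averaged indacaterol effect was higher for 9 of 29 G2/M genes at 1 h (median difference 0.26; 0.560% of all genes), for 17 at 6 h (0.31; 3.46%) and for 20 at 18 h (0.50; 2.64%), and lower for 0 at each (1.13%, 5.18% and 5.11%). Of the S-phase genes 0, 0 and 1 were called in these differences, with medians of -0.01, -0.01 and -0.11. AURKA shows the course in single groups. Its mean with indacaterol alone was 93.8 ± 5.74 (SD, n = 5) at 1 h, 66.7 ± 11.3 (n = 5) at 2 h, 134 ± 22.6 (n = 5) at 6 h and 141 ± 18.1 (n = 5) at 18 h. With vehicle it was 109 ± 11.5 (n = 5), 128 ± 18.4 (n = 5), 129.55 ± 8.47 (n = 5) and 119 ± 17.0 (n = 4). The groups overlapped at 1, 6 and 18 h, and against vehicle alone AURKA was called at 2 h and at no other time.

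**Figure D4:**
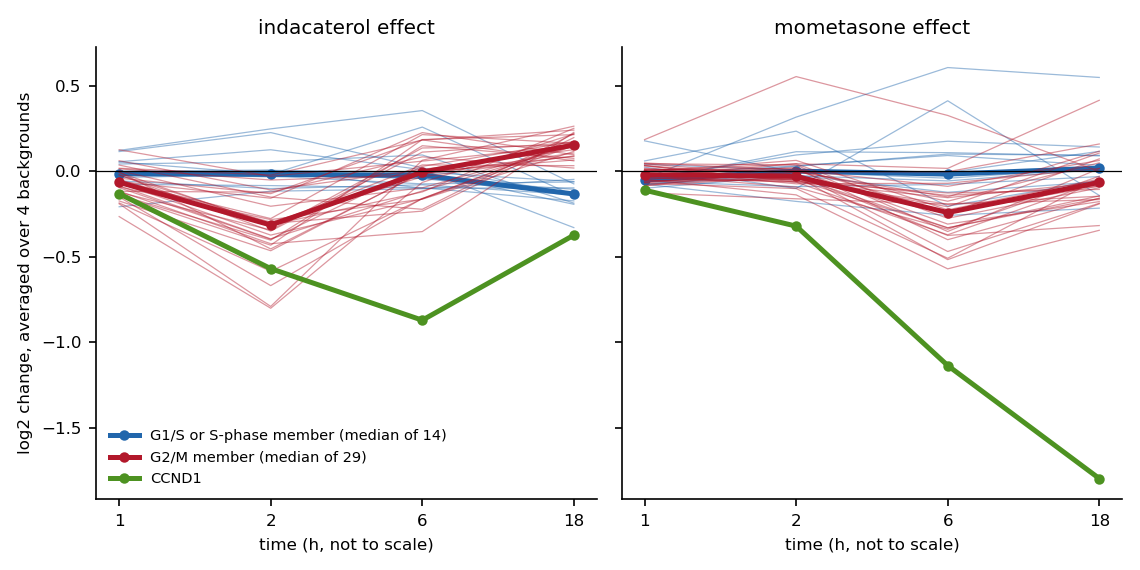
Averaged indacaterol effect (left) and averaged mometasone effect (right) in log2 units against time after treatment (1, 2, 6 and 18 h, not to scale). Thin lines are genes and thick lines are medians of the 29 G2/M genes (red), medians of the 14 S-phase genes (blue) and CCND1 (green). The red median dips to -0.31 at 2 h with indacaterol and to -0.24 at 6 h with mometasone.

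Mometasone lowered many G2/M genes later, at 6 h. In its averaged effect, 0 of 29 were called at 1 h (0.836% of all genes called lower and 1.80% higher; 0 at an unadjusted p below 0.05). At 2 h the calls were CDC20 (0.56, SE 0.10, adjusted p = 4.39e-06; 4.98% of all genes called higher and 3.59% lower) and the S-phase gene CDT1 (0.32, adjusted p = 0.00862), the latter lost without replicate 1, 2 or 5. At 6 h 21 were called lower and 1 higher (14.6% and 18.4% of all genes), with medians of -0.24 over G2/M genes, -0.02 over S-phase genes and 0.02 over all genes. For all genes the calls were 2164 lower and 2731 higher, or 2496 and 1886 with equal sums. The averaged indacaterol and mometasone effects at a time share libraries, so their values are only set side by side. AURKA was at 135, 131, 127, 138 and 116 with vehicle at 6 h and at 91.6, 81.1, 83.4, 107 and 78.9 with mometasone, with no overlap. Its averaged change at 6 h was -0.57 (SE 0.06, adjusted p = 5.99e-14), beside 0.07 with indacaterol at that time.

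CENPA was at 61.3, 48.85, 63.9, 54.4 and 60.1 with vehicle at 6 h and at 40.7, 42.35, 41.6, 43.0 and 45.9 with mometasone. The 20 libraries with mometasone (33.2 to 45.9) lay below the 20 without (47.1 to 64.4), which among G2/M genes held for CENPA alone (0.978% of all genes), and the averaged change was -0.51 (SE 0.04, adjusted p = 1.71e-19). The other large falls at 6 h were in ECT2 (-0.52), KIF20A (-0.47), BUB1 (-0.40) and CCNB1 (-0.37). ECT2 had given -0.05 with indacaterol at 2 h. CDC20 was the 1 G2/M gene called higher at 6 h (0.33, adjusted p = 0.00558), while AURKB, CCNA2, CDC25C, CENPF, HMMR, KIF11 and UBE2C were not called, at between -0.19 (CENPF) and 0.02 (HMMR). Its libraries with mometasone spanned 177 to 401 and those without 159 to 269. Of the S-phase genes, CDT1 (0.61, adjusted p = 7.27e-09), CCNE1 (0.41, adjusted p = 5.77e-05) and MCM5 (0.18, adjusted p = 0.00816) were called higher and CDC6 (-0.26, adjusted p = 0.0262) lower.

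At 18 h fewer G2/M genes were called with mometasone, 6 lower and 2 higher (13.8% and 17.6% of all genes; medians of -0.06 over G2/M and 0.05 over all genes). For all genes the calls were 2052 lower and 2616 higher, or 1603 and 2934 with equal sums. The count of 6 was 3 without replicate 2 or 4, and 2 with equal sums; the count of 2 was 0 without replicate 2, and 1 without replicate 4 or with median-ratio scaling. AURKA was at 129, 137, 106 and 103 with vehicle and at 88.7, 96.6 and 85.3 with mometasone, apart from each other, with an averaged change of -0.34 (SE 0.07, adjusted p = 3.51e-05). CCNB1 was at 261, 300.2, 239 and 302 with vehicle and at 208, 234 and 188 with mometasone, also apart, with an averaged change of -0.32 (SE 0.06, adjusted p = 1.16e-05). KIF20A overlapped, at 198, 246, 183 and 189.0 against 171, 198 and 175, and its fall of 0.19 was lost with equal sums (adjusted p = 0.278). HMMR and CDT1 were higher. HMMR was at 64.4, 75.5, 70.7 and 41.3 with vehicle and at 88.5, 94.97 and 87.5 with mometasone, without overlap, and its averaged change was 0.42 (SE 0.13, adjusted p = 0.00917; 0.0713 without replicate 2). CDT1, the licensing factor of replication origins, was at 83.3, 52.6, 74.9 and 65.6 with vehicle and at 115, 87.1 and 123 with mometasone, also without overlap, and its averaged change was 0.55 (SE 0.10, adjusted p = 3.72e-06). With 3 libraries against 4, groups can easily lie apart by chance. The share of all genes without overlap was not computed for mometasone against vehicle.

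CCND1 (chr11:69641087-69654474) fell with both agents, and was still called lower in both averaged effects at 18 h. At 2 h it was at 61.5, 61.0, 72.8, 64.0 and 40.02 with vehicle, and at 29.1, 33.3, 45.9, 36.7 and 27.6 with indacaterol. These groups overlapped through 1 vehicle library, and the change was -0.77 (SE 0.17, adjusted p = 6.98e-04). At 6 h CCND1 was at 22.7, 20.5, 27.8, 19.8 and 21.1 with vehicle, at 8.37, 7.23, 12.15, 7.06 and 8.34 with indacaterol, and at 5.94, 6.89, 10.3, 8.50 and 5.93 with mometasone. Every library with either agent lay below the vehicle range, and the change with indacaterol was -1.29 (SE 0.17, adjusted p = 4.51e-09; 0.803% of all genes called lower). At 18 h it was at 19.5, 20.04, 15.9 and 19.3 with vehicle, at 12.7, 15.2, 14.5, 13.8 and 12.8 with indacaterol and at 3.55, 3.88 and 3.93 with mometasone. The 3 groups did not overlap at 18 h, although the fall with indacaterol alone was not called (-0.41) in the fit without the replicate block.

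The averaged indacaterol effect on CCND1 was -0.13 at 1 h (not called), -0.57 at 2 h (adjusted p = 2.73e-08), -0.87 at 6 h (adjusted p = 9.78e-16) and -0.37 at 18 h (adjusted p = 0.0179). The averaged mometasone effect was -0.11 at 1 h (not called), -0.32 at 2 h (adjusted p = 0.00465), -1.13 at 6 h (adjusted p = 1.20e-23) and -1.80 at 18 h (adjusted p = 6.05e-35), where the 14 libraries with mometasone (2.59 to 6.12) lay below the 18 without (11.9 to 25.8; 2.19% of all genes were lower without overlap). The 2 agents together did not add up on the log2 scale. At 6 h CCND1 with mometasone and indacaterol was at 4.14, 6.21, 4.89, 4.44 and 4.57. The fall that indacaterol brought was smaller by 0.73 when mometasone was present (SE 0.17, adjusted p = 0.00849; 0.735% of all genes called in this interaction), and by 0.61 at 2 h (SE 0.17, adjusted p = 0.0456; 1.17%). The call at 6 h was lost without replicate 2 or 4 and with equal sums, and that at 2 h was lost without replicate 1, 2, 3 or 4 and under 5 other alternatives. In vehicle libraries the mean of CCND1 itself was 39.5 ± 6.31 (SD, n = 5) at 1 h and higher, at 59.8 ± 12.1 (n = 5), at 2 h. Against 1 h it was called lower by limma at 6 h (22.4 ± 3.21, n = 5, change -0.79, adjusted p = 0.00693). It was also called lower at 18 h (18.7 ± 1.89, n = 4, change -1.03, adjusted p = 3.18e-04). The first of these calls was lost without replicate 2 or 4, and the second with equal sums.

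**Figure D5:**
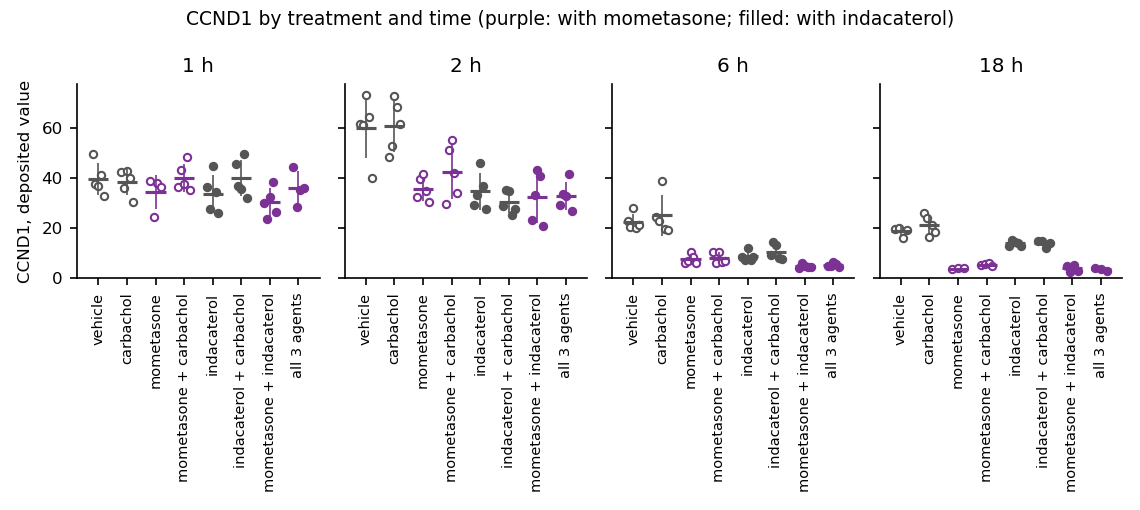
Deposited value of CCND1 (y axis, starting at 0) in the 8 treatments at 4 times. Each point is 1 library, horizontal lines are means, vertical lines are ± 1 SD, purple marks mometasone and filled points mark indacaterol. Purple points lie at 2.59 to 6.12 at 18 h, below all grey points of that time.

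Apart from CCND1, 0 of the 44 genes were called between vehicle libraries of 1 h and those of 2, 6 or 18 h (0.0135%, 0.324% and 0.121% of all genes called). At an unadjusted p below 0.05 there were 9 G2/M genes at 6 h and 9 at 18 h, with medians of 0.19 and 0.21. Here too the share of all genes at that threshold was not set beside the counts. The averaged carbachol effect called 0 of the 44 genes at each time by limma (0.189% of all genes at 1 h, 0.121% at 2 h and 0 at 6 and 18 h), and 2 with the replicate block at 2 h, KIF2C (-0.10) and MKI67 (-0.15). At an unadjusted p below 0.05, 0 of the 44 passed at 1, 6 and 18 h, and 1 G2/M gene and 1 S-phase gene passed at 2 h, where the G2/M median was -0.06.

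Lists of further cell cycle genes that are not among the 44 were read in the same way. They were chosen with earlier results of these data known and read in the same libraries, so they are not a separate test. Of 43 further mitosis genes, 30 were called lower and 0 higher at 2 h in the averaged indacaterol effect (median -0.38; 5.41% of all genes lower and 8.13% higher), led by FAM83D (-1.06), CCNF (-0.95), PIF1 (-0.93) and CDCA8 (-0.85). Of 39 further replication genes, 3 were called higher (ORC1, ORC6 and CDC45, by 0.24, 0.20 and 0.16) and 1 lower (CDC7, -0.21), with a median of -0.02; 3 of 39 is near the share of all genes called higher. Of 27 regulators tested, 3 were higher and 5 lower. MYC, a growth-promoting transcription factor, rose by 0.84, WEE1, a kinase that restrains CDK1, fell by 0.39, and FOXM1 was not called (-0.07, adjusted p = 0.164). Of 12 cyclin-dependent kinase inhibitors and quiescence genes, 6 were higher and 2 lower, with the largest rises in CDKN1C (1.34), KLF4 (1.28), TOB1 (1.16) and BTG1 (1.02). With mometasone at 6 h, 23 of the 43 further mitosis genes were lower and 0 higher (14.6% and 18.4% of all genes), with KPNA2 (-0.68) and ANLN (-0.54) leading. Of the 39 replication genes, 10 were higher, such as ORC1 (0.35) and POLE (0.31), and 2 lower, so that the share called higher was not far above that of all genes. CDKN1C, which encodes the kinase inhibitor p57, rose by 2.90, and CDKN2D, which encodes an inhibitor of the D-cyclin kinases, fell by 0.68.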

How the data were processed

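RNA sequencing values came from 1 table of 29273 genes and 160 library columns. The deposited values were named TPM by the authors, but their columns have unequal sums that partly exceed what TPM allows, so they were treated as a normalised signal; no counts are given and depth is unknown. Per the submitters' processing notes, bcl2fastq 2.17.1.14 and STAR 2.4.2a were used with GRCh38; the quantifier, annotation, strand handling and scaling were each not given in the sources used here. Left out were 10 columns: 4 marked as excluded by the authors and 6 headed 8 h, a time that no sample label gives. Replicate 1 had no column headed 18 h for vehicle, mometasone alone or any combination. Whether the 6 columns headed 8 h hold those samples was not established.

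Values were taken as log2(value + 1), which understates the change of low genes. The filter kept genes that reached 1 in 5 libraries or more (14827; 14446 were not tested). One limma fit (limma 3.58.1, R 4.3.3) covered 32 groups with 118 residual degrees of freedom and a trended prior. Adjusted p-values are Benjamini-Hochberg over all genes tested in a comparison, and a call is an adjusted p below 0.05. Folds are taken on this same scale. Counts at an unadjusted p below 0.05 are given without the share of all genes at that threshold. An interaction is the difference between 2 such differences, averaged over the third agent. The script was tested on simulated data.

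The members and the gene lists were chosen with earlier results of these data known. Every library is printed, by rule, for the 8 members with the largest called indacaterol changes (averaged effect at 2 h), the 3 S-phase members with the largest changes there, CCND1, and the 6 members with the largest called mometasone changes at 18 h. Up to 4 called genes with the largest changes were taken from each further list. The library values of PLK1 at 1 h, AURKA and CENPA at 6 h and CDC25B at 18 h, and FOXM1, were chosen after the values were seen. Gene positions are from GENCODE 29 (GRCh38), and promoters from RefSeq tables (GRCh38.p14).

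The replicate number was taken as a pairing where every same-numbered pair of libraries deviated together (correlation of deviations from group means above 0.1). This held for indacaterol against vehicle at 2 h (0.142 to 0.613) and 18 h (0.356 to 0.778), and for indacaterol added to carbachol (2 h, 0.116 to 0.645) and to mometasone with carbachol (2 h, 0.280 to 0.533). It held for the averaged carbachol effect at 2 h (0.110 to 0.792) as well. For the averaged indacaterol and mometasone effects the lowest pair was below 0.1 at each time, so the rule was not met. The averaged indacaterol effect at 2 h missed it narrowly (0.0657 to 0.678). With the replicate block, that effect called 26 G2/M genes lower at 2 h (12.4% of all genes). Among 282 replicate pairs, 0 were identical (r from 0.938 to 0.990). Alternatives were other pseudocounts (0.1 and 5), no filter, 2 other scalings, the replicate block, each time fitted alone, and leaving out each replicate or the libraries above 20% mitochondrial values.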

Additional observations from a re-analysis of the deposited data

Results flagged for a closer look

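Of 28 groups checked for a single far library, 2 were picked out, and chance alone picks out about 1 group in 20. PLK1 in vehicle at 2 h had replicate 5 at 172.06, far above the next value of 137.54, with a gap of 0.866 of the range. CCND1 in vehicle at 18 h had replicate 4 at 15.88, below the next value of 19.33, with a gap of 0.8293 of the range.

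The averaged indacaterol effect differed between times by its own test in many G2/M genes. It was higher than at 2 h for 9 genes at 1 h, for 17 at 6 h and for 20 at 18 h.

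The effect of indacaterol on CCND1 differed with and without mometasone, by 0.61 on the log2 scale at 2 h and by 0.73 at 6 h. Neither call was stable. The limma adjusted p was 0.740 at 2 h without replicate 4, and 0.171 at 6 h with equal sums.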

How the results depend on the processing

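The fall of G2/M genes at 2 h with indacaterol kept its direction under every alternative run: 17 to 21 were called lower in the averaged effect when 1 replicate was left out, and 9 to 13 against vehicle. With mometasone at 6 h the range was 17 to 21. The time differences ranged over 7 to 11, 12 to 19 and 16 to 23. Scaling to equal sums moved the median of all genes against vehicle at 2 h from 0.01 to -0.10 on the log2 scale, with 13 G2/M genes called lower. Depth is unknown, so calls among low genes cannot be set against counting error. Where a value below differs from the report's, the cause was not tested.

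Counts of S-phase genes called in the averaged indacaterol effect were 0 at 2 h and 1 at 6 h with no filter, with median ratios and with equal sums. With median ratios 1 G2/M gene was higher and 2 S-phase genes were called with mometasone at 18 h. With equal sums 1 G2/M gene was higher with mometasone at 1 h, 3 were higher with indacaterol and 2 lower with mometasone at 18 h, and 5 were lower with indacaterol added to mometasone and carbachol at 2 h. With equal sums 0 genes were called in vehicle at 18 h and 0 in the interaction of indacaterol and mometasone at 6 h. That interaction at 2 h had 0 calls with a pseudocount of 0.1, no filter, each time fitted alone, or without the mitochondria-rich libraries. Fitted alone, 1 G2/M gene was lower at 1 h and 5 higher at 6 h with indacaterol, and 2 S-phase genes were called with mometasone at 18 h. Without the mitochondria-rich libraries, 2 S-phase genes were called with mometasone at 2 h and 1 with indacaterol at 6 h, 1 G2/M gene was lower against vehicle at 6 h, and 2 genes were called in vehicle at 6 h.

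The replicate block raised the calls over all genes too, so each count with it stands beside the share of all genes called the same way. Against vehicle, indacaterol gave 3, 19 and 2 G2/M genes lower at 1, 2 and 6 h (0.567%, 3.66% and 4.65%), and called 1 S-phase gene at each of these times (2.97%, 10.2% and 7.87% in either direction). Added at 2 h to mometasone, to carbachol and to both it gave 19, 22 and 17 lower (4.68%, 6.10% and 5.37%), with 1, 1 and 0 S-phase genes called (14.3%, 15.0% and 12.1% in either direction). The averaged indacaterol effect had 9 lower at 1 h (4.34%), and 7 and 16 higher at 6 and 18 h (15.2% and 4.09%). S-phase genes called there were 2, 3, 5 and 7 at 1, 2, 6 and 18 h (10.8%, 27.1%, 29.7% and 8.91%), and 20 G2/M genes were higher at 1 h than at 2 h (2.58%). The 7 S-phase genes at 18 h were all lower (4.82%). The averaged mometasone effect had 1 higher at 1 h (3.47%), and 3 and 14 lower at 2 and 18 h (10.4% and 21.2%), with 4, 9 and 4 of the 14 S-phase genes called at 2, 6 and 18 h (21.5%, 51.8% and 47.3%). The block called 2 genes with carbachol at 2 h (0.877%) and 6 and 9 of the 44 in vehicle at 6 and 18 h (3.79% and 4.41%). In the interaction of indacaterol and mometasone it called 23 at 1 h (35.6%) and 5 at 2 h (11.4%).

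Leaving out 1 replicate, the averaged indacaterol effect gave 0 to 5 G2/M genes lower at 1 h, 3 to 6 lower and 2 to 5 higher at 6 h, and 2 to 9 higher at 18 h, with 0 to 1 S-phase genes at 2 h and 0 to 2 at 6 h. The averaged mometasone effect gave 0 to 1 higher at 1 h, 3 to 5 lower and 0 to 2 higher at 18 h, with 0 to 1 S-phase genes at 2 h and 1 to 2 at 18 h. Indacaterol added to mometasone and carbachol gave 5 to 7 at 2 h, and against vehicle 0 to 1 at 1 h. Vehicle at 6 h gave 0 to 1, and the interaction of indacaterol and mometasone 0 to 1 at 2 and at 6 h. Of single genes under all alternatives, 237 values kept their side of the threshold, 21 lost it, 2 passed it and 0 turned.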
